A study of Homo sapiens with 6 samples.

Results

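The serpins are a family of proteins that share a fold with an exposed loop, which most members offer to a protease as bait. When the protease cuts the loop, the serpin changes shape and traps the enzyme in a covalent complex, so that each inhibitor molecule works once. Some members, such as the collagen chaperone encoded by SERPINH1, keep the fold and inhibit no protease. Extracellular members control clotting, the breakdown of fibrin and inflammation, whereas those of clade B mostly stay inside the cell. All genes named SERPIN with a clade letter from A to I and a number were taken from the deposited expression table, which gave 35 serpin genes of 25442 genes on the primary chromosomes. Of these, 14 reached 1 FPKM on average across the 6 libraries and are called expressed here, and 21 lay under that minimum. FPKM counts the fragments of a gene, scaled to the length of its transcript and to the fragments mapped in the library. The name rule left out the pseudogenes SERPINA13P and SERPINB9P1, as well as relatives that carry other names, such as AGT, which encodes angiotensinogen.

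YAPC is an established human pancreatic cancer line, used in the study as a line of the classical subtype. YAPC-iGLI2 cells carried Flag-tagged human GLI2, a transcription factor of the Hedgehog pathway, behind the doxycycline (Dox) inducible promoter of pRetroX-Tight-Puro, and YAPC-iEV cells carried the empty vector. Both had Dox for 6 days before RNA was taken, with 3 libraries a group, so that Dox and vector are shared by the groups and no library without Dox was analysed here. The methods speak of independent biological replicates for the study in general, but neither they nor the labels say so of these libraries, or whether a line was 1 clone or a pool. In the sample codes, replicates 1 and 2 of each group share a digit and replicate 3 has another, which the labels do not explain. The codes also end in a letter, which is A, B and A for iEV and A, B and B for iGLI2 replicates 1, 2 and 3. Its meaning is not given either. P-values therefore measure the spread between these libraries, which may be technical. The comparison asks which serpin genes differ between classical cells made to express GLI2 and cells with the empty vector. Wherever 3 values stand in a row for a group, they follow the order of replicates 1, 2 and 3.

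GLI2 itself was between 0.344 and 0.466 FPKM in the iEV libraries and between 94.5 and 207 FPKM in the iGLI2 libraries, with the lowest of the latter in replicate 1. Of 6 markers of ductal epithelium, 4 were expressed, KRT7, KRT19, EPCAM and CDH1, with summed levels of 1890 to 2044 FPKM in iEV and 1728 to 2010 FPKM in iGLI2 libraries. Of these, EPCAM rose from 405 to 523 FPKM (limma adjusted p = 0.00709) and CDH1 from 53.2 to 68.9 FPKM (limma adjusted p = 0.0169) in the group means. KRT8 and KRT18 were listed at 0 in all 6 libraries, although they are abundant in nearly all simple epithelia, and a listed 0 is thus not read as absence below. Fibroblast markers, of which 1 of 6 was expressed, summed to 1.36 to 1.57 FPKM in iEV and 2.31 to 3.02 FPKM in iGLI2 libraries, with DCN listed at 0. COL1A1, the expressed one, rose from 1.41 to 2.69 FPKM in the group means (limma adjusted p = 0.0110). Leukocyte markers, of which 2 of 4 were expressed, LYZ and CD68, summed to 13.3 to 17.5 and 8.56 to 17.0 FPKM. LYZ was between 5.45 and 14.2 FPKM and CD68 between 2.79 and 3.27 FPKM, while PTPRC did not exceed 0.0343 FPKM. The 3 endothelial markers did not exceed 0.411 FPKM in sum. Deviations from the group mean were taken over the 12493 genes that reached the same minimum. They correlated at 0.204 between iEV replicate 1 and iGLI2 replicate 1. The correlations were 0.0919 and 0.0276 for the pairs numbered 2 and 3, and 0.117 for iEV replicate 2 with iGLI2 replicate 3. The depth behind the values is unknown, so no counting error is given.

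Of the 14 expressed serpin genes, 3 rose and 2 fell in iGLI2 cells, and 9 did not pass the threshold. SERPINA5, SERPINE2 and SERPINB5 rose 2.97-fold, 3.51-fold and 1.32-fold in the ratio of group means, and SERPINA1 and SERPINF1 fell 2.89-fold and 1.85-fold. The test was limma's moderated statistic on log2(FPKM + 1), two-sided, with adjustment over all 12493 genes tested and a threshold of 0.05. The same rule called 21.9% of all genes tested, 10.1% as higher and 11.8% as lower. For 6 of the 14, SERPINB8 in addition to the 5, the iGLI2 and iEV libraries did not overlap, as was the case for 42.0% of all genes tested. The median log2 fold change of the 14 was -0.065, against -0.015 over all genes tested, and the median size of the change without its sign was 0.19 against 0.18. The members that passed thus moved in both directions around a median near 0. When short RNA genes were left out and the libraries rescaled, 59.3% of the genes called were higher, against 46.0% as deposited, and the 5 serpin calls held. Leaving out iEV replicate 3 reduced the serpins called to 3, and leaving out iEV replicate 2, iGLI2 replicate 2 or iGLI2 replicate 3 reduced them to 2. In bulk RNA, fewer cells that express a gene and less of its RNA per cell cannot be told apart.

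**Figure D1:**
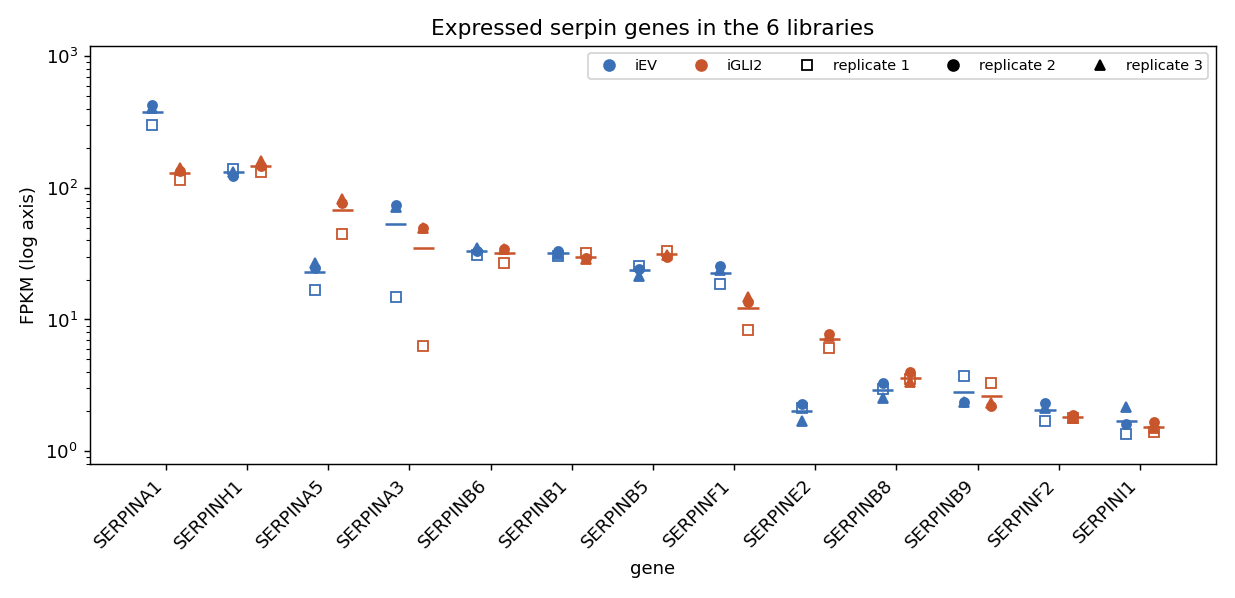
FPKM (log axis) of 13 of the 14 expressed serpin genes, ordered by their mean, with a symbol for each replicate, iEV in blue and iGLI2 in orange, and a bar at each group mean. SERPINA1 is lower in every iGLI2 library, SERPINA5 and SERPINE2 are higher in every iGLI2 library, and SERPINA3 is lowest in replicate 1 of both groups.

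**Figure D2:**
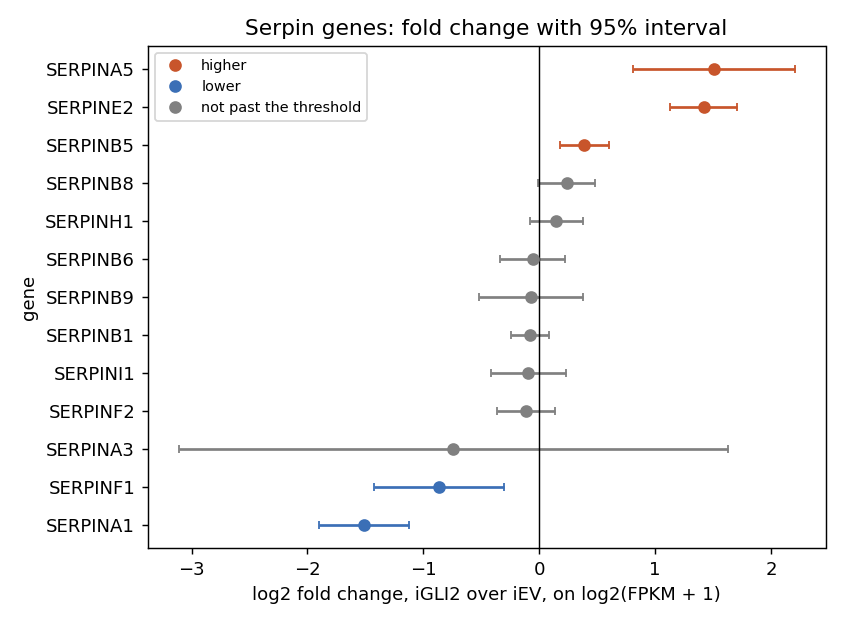
Log2 fold change of iGLI2 over iEV cells on log2(FPKM + 1) for 13 of the 14 expressed serpin genes, with 95% intervals from limma. The intervals of SERPINA5, SERPINE2, SERPINB5, SERPINF1 and SERPINA1 exclude 0 and pass the adjusted threshold, and that of SERPINA3 spans -3.11 to 1.63.

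The DNA before the start is shown for SERPINA1, SERPINA5 and SERPINE2, the members with the largest differences, since the induced factor binds DNA. RefSeq promoters were given for 27 of the 35 genes, with 41 starts, and each of the 41 was found once near its gene in GRCh37, the assembly that hg19 represents. The 250 bases before the start are printed 5′ to 3′ on the strand of the gene, in GRCh37 coordinates, for the start nearest to the one in the expression table. That start lies 57 bases from the one in the expression table for SERPINA1 and SERPINA5, and 679 bases from it for SERPINE2. The SERPINE2 window thus lies inside the interval listed for the gene, not before it. Capitals mark the GC box GGGCGG or its reverse complement, CCGCCC.

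SERPINA1 (chr14:94856973-94857222, minus strand): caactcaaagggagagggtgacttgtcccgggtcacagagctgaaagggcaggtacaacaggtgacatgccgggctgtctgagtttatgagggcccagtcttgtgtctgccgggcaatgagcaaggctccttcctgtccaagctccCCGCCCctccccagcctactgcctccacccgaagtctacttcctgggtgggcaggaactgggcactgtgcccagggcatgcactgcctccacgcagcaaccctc

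SERPINA5 (chr14:95047513-95047762, plus strand): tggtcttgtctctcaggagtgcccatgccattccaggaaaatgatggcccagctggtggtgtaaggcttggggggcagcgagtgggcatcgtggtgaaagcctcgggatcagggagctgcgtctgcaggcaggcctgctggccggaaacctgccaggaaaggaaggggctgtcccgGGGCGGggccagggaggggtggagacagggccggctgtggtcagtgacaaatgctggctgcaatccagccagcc

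SERPINE2 (chr2:224903358-224903607, minus strand): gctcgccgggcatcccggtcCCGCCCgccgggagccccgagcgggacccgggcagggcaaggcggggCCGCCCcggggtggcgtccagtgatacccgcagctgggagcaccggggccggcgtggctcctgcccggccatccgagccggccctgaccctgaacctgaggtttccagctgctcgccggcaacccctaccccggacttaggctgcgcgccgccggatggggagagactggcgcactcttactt

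In these windows the GC box occurs once before SERPINA1, 104 bases from the start, once before SERPINA5, 74 bases from the start, and 2 times before SERPINE2. The GLI consensus GACCACCCA, recalled from general knowledge, was searched on both strands and was found before 0 of the 41 starts. It occurs before 0.199% of 35116 RefSeq starts. With at most 1 mismatch it was found before 5 of the 41 starts and before 5.81% of all starts. One of the 5 belongs to SERPINA1, where TGGGTGGGC begins 61 bases before the start. Read on the opposite strand it differs from the consensus by A2C, where position 1 is the 5′ base of that motif. The others belong to SERPINB8, SERPINA6, SERPINA12 and SERPINA4. No match lay before SERPINA5 or SERPINE2, which says only that these letters are not in this window.

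Among the secreted inhibitors, SERPINA1 was the most abundant serpin transcript in iEV cells. It encodes α1-antitrypsin, the main plasma inhibitor of neutrophil elastase, and spans bases 94843084 to 94857029 of chromosome 14 (hg19, as are the positions that follow). It was at 299, 431 and 403 FPKM in the iEV libraries, against 115, 134 and 142 FPKM in the iGLI2 libraries. The highest iGLI2 library was below the lowest iEV library by a wide margin. The mean went from 377 ± 69.3 to 131 ± 13.8 FPKM (SD, n = 3 each), which is 2.89-fold lower in the ratio of means. The log2 fold change was -1.51 (limma adjusted p = 0.00214, standard error 0.16). SERPINA1 ranked 220 among all genes by its iEV mean and 635 by its iGLI2 mean. The call held in all 16 alternatives tried, with a log2 fold change between -1.67 and -1.41. SERPINA1 is best known from the liver. Acinar and liver markers, of which PRSS1 alone among 6 was expressed, summed to 5.34 to 13.4 FPKM in iEV and 2.85 to 4.55 FPKM in iGLI2 libraries, and ALB did not exceed 0.0638 FPKM while TTR was listed at 0.

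SERPINA5 moved the other way, although it lies 191 kb from SERPINA1 in the same group of genes. It encodes the protein C inhibitor, which acts on activated protein C, thrombin, urokinase and kallikreins, and spans bases 95047706 to 95059457 of chromosome 14. Its level was 16.8, 24.7 and 27.1 FPKM in the iEV libraries, against 44.3, 76.9 and 82.5 FPKM in the iGLI2 libraries. All iGLI2 libraries were above all iEV libraries, and replicate 1 was the lowest in each group. The mean rose from 22.9 ± 5.40 to 67.9 ± 20.6 FPKM (SD, n = 3 each), 2.97-fold in the ratio of means. The log2 fold change was 1.51 (limma adjusted p = 0.0156, standard error 0.29). Its adjusted p was 0.0574 without iEV replicate 2, 0.0655 without iGLI2 replicate 2 and 0.0588 without iGLI2 replicate 3, with log2 fold changes of 1.58, 1.39 and 1.34. Its interval in GENCODE release 44, lifted to GRCh37, overlaps that of SERPINA4 and of the gene ENSG00000273259 on the same strand, and SERPINA4 did not exceed 0.119 FPKM.

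SERPINE2 encodes protease nexin-1, a cell-surface inhibitor of thrombin, urokinase and tissue plasminogen activator, and lies on chromosome 2 from 224839765 to 224904036. It was at 2.11, 2.26 and 1.70 FPKM in the iEV libraries, against 6.07, 7.82 and 7.43 FPKM in the iGLI2 libraries. The groups were far apart relative to the spread within them. The ratio of means was 3.51, and on log2(FPKM + 1) the difference was 1.42 (limma adjusted p = 9.68e-04, standard error 0.12), which the added 1 holds down at these levels. With a pseudocount of 0.1 it was 1.76. SERPINE2 had the smallest p of the 14 genes and kept its call in all 15 alternatives that gave it a value.

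SERPINA3, the gene for α1-antichymotrypsin, an acute-phase inhibitor of cathepsin G and chymase, had the largest standard error of the 14, 0.97 on the log2 scale. It lies 19.3 kb beyond SERPINA5 on chromosome 14, from 95078714 to 95090390, and ENSG00000273259 overlaps it too on the same strand. The SERPINA3 level was 14.9, 73.7 and 71.5 FPKM in the iEV libraries, against 6.29, 49.3 and 49.5 FPKM in the iGLI2 libraries. Replicate 1 was by far the lowest in both groups, and the spread within a group was larger than the difference between them. The log2 fold change was -0.74, with a 95% interval from -3.11 to 1.63 (limma adjusted p = 0.628). It became 0.19 without iGLI2 replicate 1 and -1.48 without iEV replicate 1. With both libraries numbered 1 left out, an alternative chosen after seeing the data, it was -0.55 with a limma adjusted p of 0.00183 on 2 libraries a group, where 43.8% of all genes tested were called.

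The remaining secreted members were expressed at lower levels. SERPINF1 encodes pigment epithelium-derived factor, an anti-angiogenic serpin that inhibits no protease, and lies on chromosome 17 from 1665259 to 1680859. It was at 18.5, 25.7 and 23.9 FPKM in the iEV libraries, against 8.33, 13.7 and 14.8 FPKM in the iGLI2 libraries. The groups did not overlap, and replicate 1 was again the lowest in each. The mean went from 22.7 ± 3.78 to 12.3 ± 3.45 FPKM (SD, n = 3 each), or -0.86 on the log2 scale (limma adjusted p = 0.0454, standard error 0.23). The call was lost when any library except iGLI2 replicate 1 was left out, with limma adjusted p-values of 0.0590, 0.151 and 0.148 without iEV replicates 1, 2 and 3, and of 0.0947 and 0.0647 without iGLI2 replicates 2 and 3. It was also lost without a filter on low values (limma adjusted p = 0.0633) and when the digit in the sample code was fitted as a block (limma adjusted p = 0.0587).

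SERPINF2, the gene for α2-antiplasmin, the plasma inhibitor of plasmin, ends only 6.70 kb before SERPINF1. Its level was 1.70, 2.33 and 2.14 FPKM in the iEV libraries, against 1.79, 1.88 and 1.77 FPKM in the iGLI2 libraries. The groups overlapped, and the log2 fold change was -0.11 (95% interval from -0.36 to 0.14, limma adjusted p = 0.473). SERPINI1, which encodes neuroserpin, an inhibitor of tissue plasminogen activator known from the nervous system, was at 1.35, 1.60 and 2.17 FPKM in the iEV libraries, against values from 1.39 to 1.67 FPKM in the iGLI2 libraries. Its groups also overlapped, and the log2 fold change was -0.094 (95% interval from -0.42 to 0.23, limma adjusted p = 0.655). SERPINI1 had the lowest mean of the genes inside the minimum, 1.61 FPKM, and SERPINC1 had the highest of those outside it, 0.72 FPKM.

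SERPINH1 encodes HSP47, which resides in the endoplasmic reticulum and helps procollagen to fold, and it was the second most abundant serpin transcript in iEV cells. Its level was 140, 123 and 133 FPKM in the iEV libraries, against 133, 146 and 160 FPKM in the iGLI2 libraries. The groups overlapped. Their log2 fold change was 0.15, and its 95% interval ran from -0.077 to 0.37 (limma adjusted p = 0.309). In iGLI2 cells its mean of 146 FPKM was above that of SERPINA1, so that the order of the most abundant pair was turned.

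Of the 13 clade B genes, 5 were expressed, of which 1 passed the test. SERPINB5 encodes maspin, a serpin with epithelial expression that inhibits no known protease by the usual mechanism, and lies on chromosome 18 from 61144144 to 61172318. It was at 25.6, 24.2 and 21.3 FPKM in the iEV libraries, against 33.2, 29.8 and 30.8 FPKM in the iGLI2 libraries. All iGLI2 libraries were above all iEV libraries. The mean rose from 23.7 ± 2.19 to 31.3 ± 1.74 FPKM (SD, n = 3 each), 1.32-fold, or 0.39 on the log2 scale (limma adjusted p = 0.0259, standard error 0.086). The call was lost without iEV replicate 2, iEV replicate 3, iGLI2 replicate 2 or iGLI2 replicate 3, with limma adjusted p-values of 0.0878, 0.0735, 0.0682 and 0.0792, while the log2 fold change stayed between 0.32 and 0.46.

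SERPINB8, whose product inhibits the proprotein convertase furin, was at 2.97, 3.27 and 2.53 FPKM in the iEV libraries, against 3.55, 3.97 and 3.34 FPKM in the iGLI2 libraries. The groups did not overlap, yet the log2 fold change of 0.24 missed the threshold (95% interval from -0.0066 to 0.48, limma adjusted p = 0.148). HMSD overlaps SERPINB8 on the same strand in GENCODE release 44 lifted to GRCh37, and so reads of either may be counted for the other.

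The 3 clade B genes of chromosome 6 showed no detectable difference. SERPINB1, the leukocyte elastase inhibitor, was between 30.5 and 33.4 FPKM in iEV and between 29.1 and 31.9 FPKM in iGLI2 libraries, with a log2 fold change of -0.081 (95% interval from -0.25 to 0.084, limma adjusted p = 0.441). SERPINB6, an inhibitor of cathepsin G, was between 31.1 and 34.9 FPKM in iEV and between 26.7 and 34.6 FPKM in iGLI2 libraries, with a log2 fold change of -0.057 (95% interval from -0.34 to 0.23, limma adjusted p = 0.761). In both genes the groups overlapped. SERPINB9, the inhibitor that shields cells from granzyme B, was at 3.73, 2.37 and 2.35 FPKM in the iEV libraries, against 3.31, 2.20 and 2.34 FPKM in the iGLI2 libraries. Here the library numbered 1 was the highest of each group, the reverse of SERPINA3, and the log2 fold change was -0.072 (95% interval from -0.52 to 0.38, limma adjusted p = 0.815).

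As listed, the position of the expressed genes was uneven within the gene clusters. On 18q21, 10 clade B genes lie in 512 kb, and the expressed ones, SERPINB5 and SERPINB8, are the first and the last in chromosome order. The 8 genes between them were under the minimum, 7 of them listed at 0 in all 6 libraries and SERPINB7 at no more than 0.0368 FPKM. A listed 0 may be a failed estimate, so these 7 genes are not shown to be silent. On 14q32, 10 clade A genes lie in 341 kb, of which SERPINA1, SERPINA5 and SERPINA3 were expressed. On 6p25, all 3 genes were expressed. SERPINA1, on the minus strand, and SERPINA5, on the plus strand, were thus lower and higher in iGLI2 cells within 1 cluster.

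**Figure D3:**
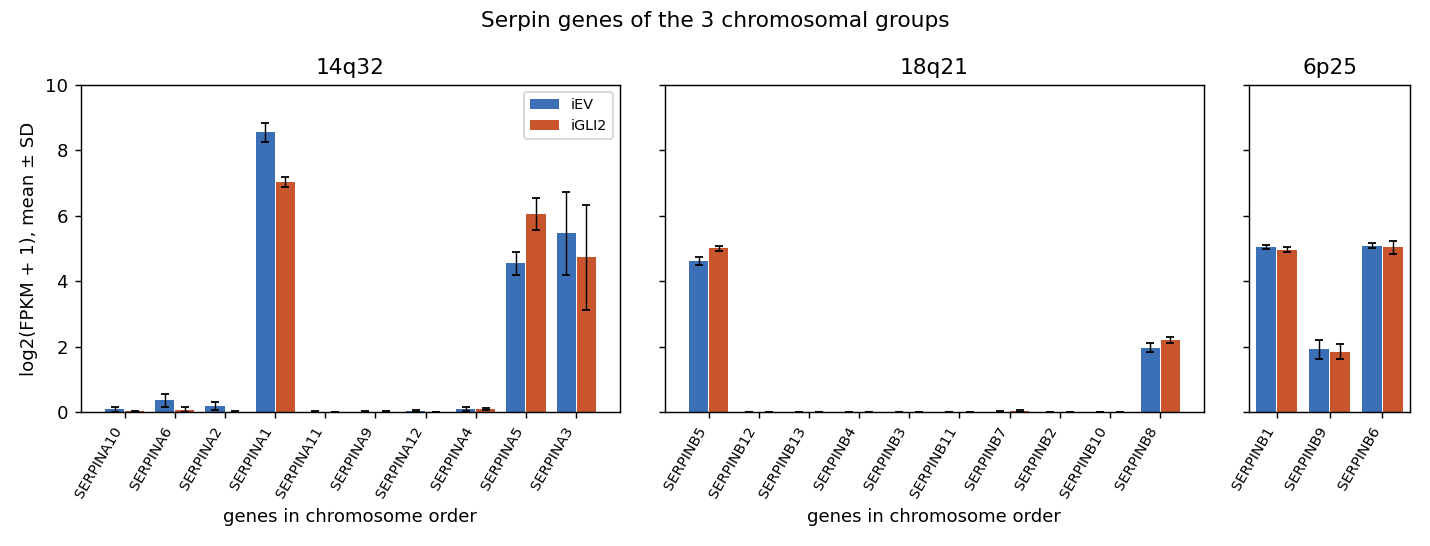
Mean log2(FPKM + 1) with SD over 3 libraries for the serpin genes of 14q32, 18q21 and 6p25 in chromosome order, iEV in blue and iGLI2 in orange. Levels above 1 FPKM are seen for 3 of the 10 genes of 14q32, for the outermost genes of 18q21 and for all 3 genes of 6p25.

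Promoter composition is given for the expressed genes and for those under the minimum, some of which are listed at 0 and may be failed estimates. A GC box lay before at least 1 start in 8 of the 11 expressed genes with a RefSeq promoter, and in 1 of the 16 genes under the minimum. Over starts these counts were 11 of 17 and 1 of 24, and 42.6% of all 35116 starts had one. The median GC content of the 250 bases was 64.4% and 45.6%. The TATA box TATAAA, searched on both strands, was found before 2 of 17 and 6 of 24 starts and before 10.7% of all starts. The E-box CACCTG, the motif of EMT repressors such as ZEB1, was found before 4 of 17 and 5 of 24 starts and before 17.5% of all starts. Starts of the same gene share sequence, and these counts are descriptions without a test. The shares over all starts were not split by expression, so the contrast is not shown to be particular to serpins.

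Of the 21 genes under the minimum, 9 were listed at 0 in all 6 libraries. They are SERPINA7, SERPINB2, SERPINB3, SERPINB4, SERPINB10, SERPINB11, SERPINB12, SERPINB13 and SERPINI2. SERPINB3 and SERPINB4, which encode the squamous cell carcinoma antigens, belong to the basal-like signature of the study. They are near-identical copies whose reads can match both, and the handling of such reads is not given in the sources used here, so the listed 0 cannot be told apart from a failed estimate. Of the other 12, 10 stayed below 0.5 FPKM in every library. SERPINC1, the gene for antithrombin, was at 0.746, 1.04 and 0.744 FPKM in the iEV libraries, against 0.652, 0.668 and 0.469 FPKM in the iGLI2 libraries. SERPIND1, the gene for heparin cofactor II, a thrombin inhibitor, was at 0.123, 0.197 and 0.195 FPKM in the iEV libraries, against 0.512, 0.638 and 0.614 FPKM in the iGLI2 libraries. With no filter on low values, 15.1% of all 20035 genes tested were called. In that fit SERPIND1 was the only one of these 12 to pass, as higher (log2 fold change 0.44, limma adjusted p = 0.00327). It overlaps PI4KA on the opposite strand, and the counting is not stated to use strand. Reads of either gene may thus be counted for the other, and an overlap of their exons was not checked. SERPINA2 and SERPINA6, neighbours of SERPINA1, were at no more than 0.233 and 0.427 FPKM, with limma adjusted p-values of 0.143 and 0.143 in the same fit.

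Summed over all 35 genes, serpin transcripts came to 603, 795 and 772 FPKM in the iEV libraries, against 427, 549 and 576 FPKM in the iGLI2 libraries. All iGLI2 sums were below all iEV sums. The total over all entries was also lower in iGLI2 libraries, with 803149 to 889559 FPKM against 981344 to 1082690 FPKM in iEV libraries. The serpin sums were not rescaled for that difference. The short RNA gene MIR4461 alone made up 42.6% to 45.4% of the total in iEV and 35.7% to 37.7% in iGLI2 libraries. Without short RNA genes the totals overlapped, with 490584 to 536650 FPKM in iGLI2 and 535546 to 558869 FPKM in iEV libraries. The mean of SERPINA1 alone fell by more FPKM than the mean of the sum did. SERPINA1 made up between 49.6% and 54.2% of the sum in iEV libraries and between 24.4% and 27.0% in iGLI2 libraries. Without it, the other secreted inhibitors summed to 51.1, 118 and 118 FPKM in iEV and to 70.5, 154 and 157 FPKM in iGLI2 replicates 1, 2 and 3. Replicate 1 was the lowest of each group in this sum, as in SERPINA3 and SERPINA5. SERPINA5 made up between 2.78% and 3.50% of the serpin sum in iEV and between 10.4% and 14.3% in iGLI2 libraries. The clade B sum was nearly level, with 92.7 to 96.4 FPKM in iEV and 98.7 to 100.2 FPKM in iGLI2 libraries. These sums describe RNA per length unit, not protein, and no test was run on them.

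**Figure D4:**
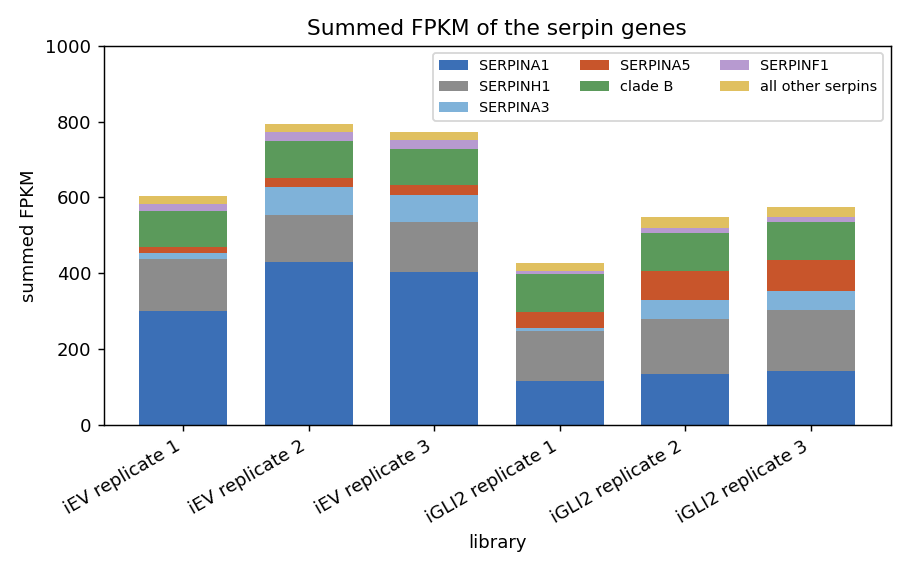
Summed FPKM of the 35 serpin genes in each of the 6 libraries, stacked by gene or clade. The iEV bars reach 603 to 795 FPKM with SERPINA1 as the largest part, and the iGLI2 bars reach 427 to 576 FPKM with a smaller SERPINA1 part and a larger SERPINA5 part.

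Genes that serpins act on or beside were taken from lists written with earlier results of these data known. Over all these lists, 71 of 126 genes were tested, of which 21 rose and 12 fell in iGLI2 cells, against the 21.9% called over all genes, and their median log2 fold change was 0.11. Among genes of plasminogen activation, 11 of 14 were tested, 2 were higher and 4 were lower, and the median was -0.39. PLAU encodes urokinase, a target of SERPINE2 and SERPINA5. It fell from 266, 373 and 350 FPKM in iEV replicates 1, 2 and 3 to 106, 116 and 118 FPKM in iGLI2 replicates 1, 2 and 3 (log2 fold change -1.51, limma adjusted p = 0.00133). PLAT, the gene for tissue plasminogen activator, fell from 44.6, 53.8 and 51.1 FPKM to 21.9, 24.0 and 22.3 FPKM in the same order (log2 fold change -1.09, limma adjusted p = 9.03e-04). Both activators thus fell while SERPINE2 and SERPINA5 rose. SERPINI1 (log2 fold change -0.094) and SERPINF2 (-0.11), which inhibit tissue plasminogen activator and plasmin, showed no detectable difference. The plasminogen-binding proteins ANXA2 (log2 fold change -0.39) and ENO1 (log2 fold change -0.42) also fell, whereas the urokinase receptor PLAUR (log2 fold change 0.47) rose.

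Among genes of thrombin and coagulation, 10 of 18 were tested, 3 were higher and 1 was lower, with a median of 0.27. THBD, the gene for thrombomodulin, which turns thrombin towards protein C, fell from 11.8 ± 0.957 to 4.46 ± 0.574 FPKM (SD, n = 3 each, log2 fold change -1.23, limma adjusted p = 9.21e-04). TFPI, which encodes the inhibitor of the tissue factor pathway, rose from 33.0 ± 0.791 to 56.3 ± 4.95 FPKM (SD, n = 3 each, log2 fold change 0.75, limma adjusted p = 0.00205), and F3, the gene for tissue factor itself, rose by a log2 fold change of 0.29. F5, the gene for coagulation factor V, rose from 0.382 ± 0.0278 to 1.82 ± 0.259 FPKM. F5 reached the minimum of 1 FPKM only through the iGLI2 group, so its place in the count depends on that group. Changes in this list were thus not in 1 direction.

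Membrane-anchored and kallikrein-type serine proteases had 16 of 27 genes tested, 6 higher and 1 lower, with a median of 0.18. Over all genes tested, 10.1% were called higher and 11.8% lower. KLK10, a kallikrein-related gene, rose from 1.01 ± 0.286 to 10.8 ± 1.01 FPKM (SD, n = 3 each, log2 fold change 2.56, limma adjusted p = 2.21e-04). KLK6 rose from 16.6, 12.8 and 12.6 FPKM to 36.0, 37.7 and 36.6 FPKM (log2 fold change 1.35, limma adjusted p = 9.68e-04). PRSS22 (log2 fold change 1.12), TMPRSS4 (1.18), TMPRSS3 (0.56) and PRSS23 (0.51) rose as well, and TMPRSS2 fell (-1.06). Most of the genes called here were thus higher in iGLI2 cells, while 9 of the 16 tested were not called. PRSS1, the trypsinogen gene that is also an acinar marker, is named after its values were seen. It was at 5.18, 13.3 and 12.2 FPKM in iEV and at 2.59, 4.36 and 3.87 FPKM in iGLI2 replicates 1, 2 and 3 and did not pass (limma adjusted p = 0.0564), and its near-identical relatives share reads with it.

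Lysosomal cathepsins had 11 of 16 genes tested, 4 higher and 2 lower, with a median of 0.11. CTSV rose from 3.97 ± 0.184 to 25.9 ± 3.17 FPKM (SD, n = 3 each, log2 fold change 2.43, limma adjusted p = 1.32e-04). CTSC (log2 fold change 1.23), CTSB (1.11) and CTSH (1.07) rose about 2-fold, and CTSS (-0.52) and CTSZ (-0.41) fell. The expressed clade B serpins showed no change of that size. Of the cathepsins, SERPINB6 is named above as an inhibitor of cathepsin G only, whose gene CTSG was listed at 0 in all 6 libraries. None of the 7 granule proteases was tested, and none exceeded 0.620 FPKM in a library.

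Among serine protease inhibitors of other families, 8 of 21 were tested, 3 were higher and 2 were lower. SLPI, which inhibits neutrophil elastase as SERPINA1 does, fell from 39.7 ± 1.28 to 8.86 ± 2.50 FPKM (SD, n = 3 each, log2 fold change -2.08, limma adjusted p = 0.00147). SPINT1, an inhibitor of hepatocyte growth factor activator and matriptase, fell by 0.30 on the log2 scale. WFDC3 (log2 fold change 1.17), SPINK5 (0.85) and SPINK7 (0.85) rose, the latter 2 from about 1 FPKM. SLPI and SERPINA1, both secreted elastase inhibitors, were thus lower in iGLI2 cells, while the intracellular one, SERPINB1, showed no detectable difference.

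The receptors that clear serpin complexes had 4 of 7 genes tested, of which 2 were higher and 0 were lower. LRP1, also counted under plasminogen activation, takes up complexes of SERPINE2 with its proteases. It rose from 0.409, 0.735 and 0.811 FPKM in iEV to 1.42, 4.07 and 3.68 FPKM in iGLI2 replicates 1, 2 and 3 (log2 fold change 1.23, limma adjusted p = 0.0349). LRP1 passed the minimum only through the iGLI2 group, with a mean of 0.652 FPKM in iEV cells. SORL1 rose from 89.8 ± 7.80 to 170 ± 5.08 FPKM (SD, n = 3 each, log2 fold change 0.91, limma adjusted p = 0.00111). Genes that fold and modify collagen beside SERPINH1 had 12 of 17 tested, 2 higher and 2 lower, with a median of -0.024. FKBP10 (log2 fold change 1.30) and P4HA2 (0.59) rose, and COLGALT2 (-1.44) and COLGALT1 (-0.28) fell. COLGALT2 passed the minimum only through the iEV group, with a mean of 0.729 FPKM in iGLI2 cells. In the same list P4HA1 and PLOD2, which modify collagen and are named after their values were seen, were highest in the library numbered 1 of each group, with 27.0 against 15.4 and 14.3 FPKM in iEV and 51.2 against 18.8 and 18.2 FPKM in iGLI2 cells for PLOD2. These values move with the low SERPINA3 and high SERPINB9 of the same libraries, and their part in those levels was not tested.

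**Figure D5:**
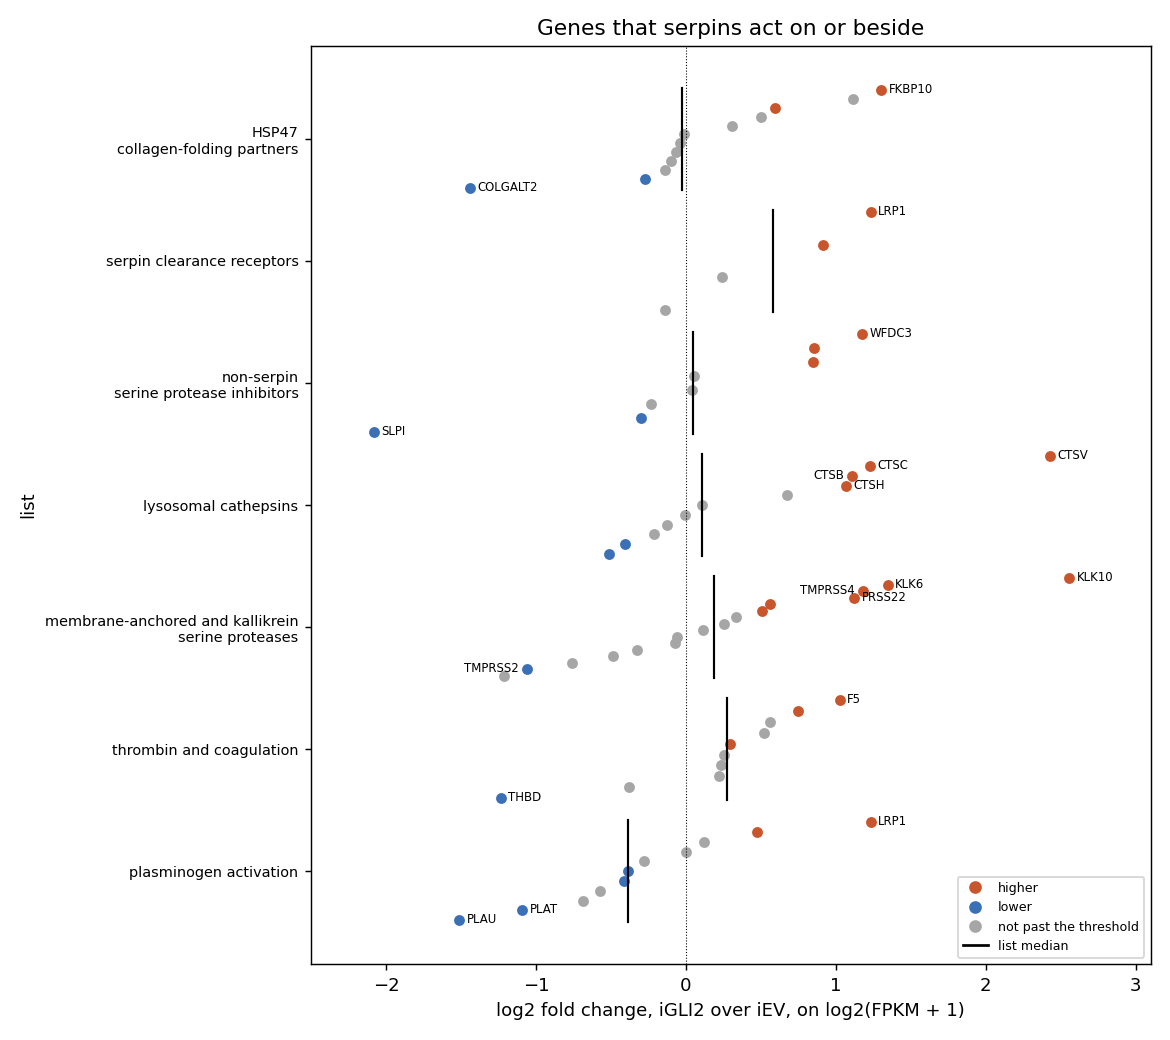
Log2 fold change of iGLI2 over iEV cells on log2(FPKM + 1) for the tested genes of each list, with a point per gene, coloured where it passed the adjusted threshold, and a bar at the list median. PLAU, PLAT, THBD and SLPI lie to the left, and KLK10 and CTSV lie furthest to the right.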

How the data were processed

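RNA of YAPC cells was made into libraries with a TruSeq kit, 3 of iEV and 3 of iGLI2 cells, grouped by their labels. For the deposited table, the authors clipped reads with Trimmomatic, used TopHat2 against hg19 and then Cuffdiff (2.1.1 in the submitters' processing notes). Its header names no unit, and the deposited values were read as FPKM from their form. Annotation, scaling between libraries, strand and treatment of multiply matching reads are not given in the sources used here. The table had 0 value columns without a sample. Of 27024 entries, 1252 outside the primary chromosomes and 330 with a higher entry of the same name were left out.

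limma (3.58.1, R 4.3.3) compared the groups on log2(FPKM + 1) over 12493 genes averaging 1 FPKM or more, with no covariate, a trend of variance with level and Benjamini-Hochberg adjustment. An exact permutation test of 3 against 3 libraries cannot go below 0.1 and was not used. Alternatives were another pseudocount, filters, scalings, blocks, no trend and each library left out. The expressed serpins are named except 1, whose values are not reported here and which stays in the counts and sums, and of the partner lists the genes past the threshold. The members and lists were chosen with earlier results of these data known. Promoters are from RefSeq (GRCh38.p14), matched by sequence to GRCh37. Overlaps of genes come from GENCODE release 44 lifted to GRCh37.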

Additional observations from a re-analysis of the deposited data

How the results depend on the processing

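SERPINA1 and SERPINE2 kept their direction and their call under every alternative that gave them a value. SERPINA5, SERPINB5 and SERPINF1 kept their direction throughout. Over the libraries left out in turn, the number of serpin genes called lay between 2 and 5, with 1 to 3 higher and 1 to 2 lower, the genes called over the whole table between 1223 and 3753, and the partner genes called between 24 and 41. Over the whole table, 1223 genes were called without iEV replicate 2, 1303 without iEV replicate 3, 1357 without iGLI2 replicate 2 and 1510 without iGLI2 replicate 3, against 2742 with all libraries. A minimum of 5 FPKM removed SERPINB8, SERPINB9, SERPINE2, SERPINF2 and SERPINI1 and gave no value for them. The number of serpins called lower was 1 with no filter on low values and 1 when the digit in the sample code was fitted as a block. With both libraries numbered 1 left out, an alternative chosen after seeing the data, 8 serpins, 4 of them lower, 5467 genes in all and 53 partner genes were called.

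Among the genes named, signs turned only for those near 0 or with wide intervals. SERPINB6 became 0.019 with short RNA genes left out, 0.021 with both libraries numbered 1 left out and 0.063 without iGLI2 replicate 1. SERPINB9 became 0.093 without iEV replicate 1 and 0.0092 without iGLI2 replicate 2, SERPINI1 0.026 without iEV replicate 3 and SERPINA3 0.19 without iGLI2 replicate 1. The lowest values with 1 library left out were -1.48 for SERPINA3, -0.12 for SERPINB6, -0.20 for SERPINB9 and -0.19 for SERPINI1. The cause was not tested.

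The replicate numbers did not meet the condition for pairing, since the correlation of deviations was over 0.1 for only 1 of the 3 pairs. The libraries numbered 3 also differ in the letter of their sample codes, which was not fitted. With the replicate number as a block, 3928 genes and 7 serpins were called, SERPINA3 (-0.74, limma adjusted p = 0.0284) and SERPINB8 (0.24, limma adjusted p = 0.0478) in addition to the 5. With both libraries numbered 1 left out, SERPINB1 (-0.15, limma adjusted p = 0.0464) and SERPINH1 (0.26, limma adjusted p = 0.0480) also passed. Low values are limited by an unknown depth.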

Other observations

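The pseudogenes that the name rule left out were low. SERPINB9P1, beside SERPINB9 on chromosome 6, was at 0.386, 0.515 and 0.521 FPKM in the iEV libraries, against 0.158, 0.369 and 0.203 FPKM in the iGLI2 libraries, so that the groups did not overlap, and SERPINA13P did not exceed 0.117 FPKM. Neither entered the test.

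Beyond the comparisons above, the trypsinogen genes PRSS1 and PRSS3 were low in the library numbered 1 of the iEV cells, as SERPINA3 was, and are named after their values were seen. PRSS3 was at 1.16, 3.22 and 2.86 FPKM in the iEV libraries, against 0.886, 1.07 and 0.857 FPKM in the iGLI2 libraries (limma adjusted p = 0.0916).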
